A study of Mus musculus with 11 samples.

Results

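Phosphatidylcholine (PC) and phosphatidylethanolamine (PE) are the main phospholipids of cell membranes, and 10 genes for their synthesis and remodeling were followed in liver mRNA. They were chosen by symbol among the 36788 Ensembl gene identifiers of the table and comprise the choline and ethanolamine kinases Chka, Chkb, Etnk1 and Etnk2, the CDP-choline- and CDP-ethanolamine-forming enzymes Pcyt1a and Pcyt2, the phosphotransferase Cept1, the methyltransferase Pemt, the decarboxylase Pisd and the acyltransferase Lpcat3. All 10 were found in the table, and all 10 reached the mean of 0.5 CPM (counts per 1000000 reads on genes) that was required for a fit over 12733 genes. The genes were proposed with the differences between the treatment groups in these livers already known. Their differences between groups are therefore a description: no p-value is printed for them, and which of them passed the threshold of the fit over all genes is stated as part of that description.

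The livers came from wild-type C57BL/6 female mice older than 12 weeks. The study's methods instead give a mixed background, which includes C57BL/6J, for all its mice. All of the mice compared here had been ovariectomized (OVX) and fed a high-fat diet (HFD), so neither group had ovaries and no group on another diet was compared. In the FSH group, 5 mice (numbered 1, 2, 3, 4 and 6) received daily intraperitoneal injections of 30 IU/kg follicle-stimulating hormone (GONAL-f, a recombinant human FSH), and in the control group 6 mice (numbered 1 to 6) received saline. The comparison asked how FSH changed liver transcripts under these conditions. Libraries held between 10801891 and 19909327 reads on genes, and 3 reads, the limit that a count of 0 allows, correspond to at most 0.278 CPM (counting error only). Of 6 hepatocyte markers, 5 were in the table, and their summed level was between 90812 and 117530 CPM in each liver. For none of 9 lists of liver, blood, adipose and pancreatic cell markers were the summed levels of the groups apart, and Pnlip, Cel and Lep had no read in any library. Such sums are carried by the most abundant gene of a list, and single markers did differ. All 5 Kupffer cell and macrophage markers had lower means with FSH (log2 differences from -0.78 to -0.41), of which Cd68 passed the test (-0.78, limma adjusted p = 0.0118) and Clec4f did not (-0.67, limma adjusted p = 0.0818). The endothelial marker Lyve1 (-0.63, limma adjusted p = 0.0121) and the adipocyte marker Fabp4 (-0.64, limma adjusted p = 0.0342) fell, with overlapping groups. The cholangiocyte marker Krt7 rose from a low mean of 0.97 CPM with saline to 1.86 CPM with FSH (0.69, limma adjusted p = 0.00731). Its groups did not overlap, as for 6.67% of all genes tested. Of the other cholangiocyte markers, Krt19 (0.20), Epcam (0.29) and Spp1 (0.28) had higher and Sox9 (-0.50) lower means with FSH, and of the other endothelial markers, Stab2 (-0.32), Pecam1 (-0.13) and Clec4g (-0.04) had lower and Kdr (0.03) higher means, none past the threshold. The adipocyte marker Cidec (0.17) did not pass it either. The adipocyte markers Adipoq and Plin1 had means of at most 0.0258 CPM in either group and were not tested, so Fabp4 alone cannot stand for adipocytes here. All 6 stellate cell and fibroblast markers had lower means with FSH (log2 differences from -0.52 for Col1a1 to -0.09 for Des), and 0 of them passed the test. Their part in the differences of the phospholipid genes was not tested.

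In mammalian cells, most PC is made by the CDP-choline branch of the Kennedy pathway: choline is phosphorylated by choline kinase, activated to CDP-choline by the enzyme that Pcyt1a encodes, and joined to diacylglycerol. PE is made by the parallel CDP-ethanolamine branch, and in mitochondria by decarboxylation of phosphatidylserine. The liver is particular in that it also makes much of its PC by methylating PE with the enzyme encoded by Pemt, and PC is needed there for bile and for the surface of lipoproteins and lipid droplets.

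The promoters of Chka, Cept1 and Lpcat3 are shown because these genes, with Pcyt2, had levels that did not overlap between FSH and saline livers, in both directions. RefSeq (GRCm38.p6, the build mm10 that the submitters' processing notes name) gave 15 start sites for 9 of the 10 genes. Each window holds 250 bases before and 50 bases after the start, on the strand of the gene, from chr19:3851523-3851822 (plus strand) for Chka, chr3:106547753-106548052 (minus strand) for the first of 3 Cept1 starts and chr6:124662854-124663153 (plus strand) for Lpcat3. Capitals mark the NF-Y box CCAAT, also read on the other strand as ATTGG, and the glucocorticoid receptor half-site AGAACA.
Chka: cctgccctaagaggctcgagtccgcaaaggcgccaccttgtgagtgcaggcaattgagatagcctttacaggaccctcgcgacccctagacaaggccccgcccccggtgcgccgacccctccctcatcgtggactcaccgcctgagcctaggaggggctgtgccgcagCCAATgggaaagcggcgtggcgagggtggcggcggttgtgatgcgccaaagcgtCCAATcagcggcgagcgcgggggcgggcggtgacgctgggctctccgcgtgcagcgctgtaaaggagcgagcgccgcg
Cept1: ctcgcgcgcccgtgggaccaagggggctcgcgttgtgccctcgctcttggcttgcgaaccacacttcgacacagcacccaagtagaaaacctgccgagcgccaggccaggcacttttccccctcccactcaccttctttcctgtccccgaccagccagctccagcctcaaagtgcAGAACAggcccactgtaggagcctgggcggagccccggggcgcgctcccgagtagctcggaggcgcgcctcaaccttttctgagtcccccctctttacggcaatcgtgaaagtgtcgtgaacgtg
Lpcat3: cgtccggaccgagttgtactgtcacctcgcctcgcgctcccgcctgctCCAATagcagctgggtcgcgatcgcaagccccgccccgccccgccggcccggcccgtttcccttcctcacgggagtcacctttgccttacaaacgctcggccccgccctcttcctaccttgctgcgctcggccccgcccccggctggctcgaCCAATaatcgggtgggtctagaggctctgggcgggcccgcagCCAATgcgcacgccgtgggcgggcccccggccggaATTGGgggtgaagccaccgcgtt

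The NF-Y box occurred 2 times in the Chka window, starting 82 and 28 bases before the start site, and 4 times in the Lpcat3 window, while 37.4% of all 32851 RefSeq promoter windows held it at least 1 time. The NF-Y box was also in windows of Chkb (at positions -76 and -13 from the start), Pisd and Pemt, whose levels overlapped between the groups. It was in the window of the third Cept1 start as well. AGAACA occurred in the printed Cept1 window and in that of the second Pemt start, as in 19.0% of all windows. Searched on both strands, the E-box CACGTG (7.15% of all windows), the D-box spelled TTATGTAA or TTACGTAA (1.06%) and the TATA box TATAAA (13.6%) were in none of these 3 windows. The letters TCACNCCAC of the sterol regulatory element, present in 1.24% of all windows, occurred as TCACCCCAC in the window of the first Pcyt1a start, 116 bases before it. The nuclear receptor half-site AGGTCA (16.3% of all windows) occurred in the window of the third Pcyt1a start only, among the 15 windows. None of the 7 motifs was found to overlap another in the printed windows, and a match of letters is not evidence of binding.

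Chka, which encodes choline kinase alpha and acts at the entry of choline into the CDP-choline branch, differed most between the groups (chr19:3851773-3894369, plus strand, GRCm38; identifier ENSMUSG00000024843). With FSH, its level was 13.5, 14.8, 17.1, 14.98 and 14.5 CPM in mice 1, 2, 3, 4 and 6. With saline, it was 59.8, 50.4, 59.4, 89.3, 87.5 and 81.3 CPM in mice 1 to 6. The lowest saline liver thus lay far above the highest FSH liver, and the saline livers were spread more widely, with a coefficient of variation of 23.5% against 8.84%. Between 165 and 302 reads stood behind the FSH values and between 679 and 1307 behind the saline values. The mean was 14.96 ± 1.32 CPM (SD, n = 5) in FSH livers and 71.3 ± 16.7 CPM (SD, n = 6) in saline livers. On the log2(CPM + 0.5) scale the log2 difference, FSH minus saline, was -2.18 (standard error 0.14, limma), that is 4.55-fold lower with FSH, and it ranked 24 by size among the 12733 genes. In whole liver RNA, fewer cells of a type and less RNA per cell cannot be told apart. Over 21 alternative fits, the log2 difference of Chka stayed between -2.28 and -2.11.

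Dbp and Arntl, the only genes of the daily liver clock followed here, also differed between the groups. Dbp, a transcription factor gene with a strong daily rhythm, had between 42.6 and 121.0 CPM in the FSH livers and between 3.40 and 4.95 CPM in the saline livers. Arntl, the core clock gene for BMAL1 that peaks at the opposite phase, had between 2.06 and 5.08 CPM with FSH and between 13.2 and 22.8 CPM with saline. Neither gene overlapped between the groups, and their part in the differences of the phospholipid genes was not tested.

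The other choline kinase and the ethanolamine kinases had similar ranges in both groups. Chkb, for choline kinase beta (chr15:89426360-89429908), had 37.6 ± 6.92 CPM (SD, n = 5) in FSH livers and 38.9 ± 9.81 CPM (SD, n = 6) in saline livers, a log2 difference of -0.04 (standard error 0.16). Etnk1 (chr6:143167221-143232307), which encodes an ethanolamine kinase, ranged from 41.1 to 58.9 CPM with FSH and from 35.7 to 57.8 CPM with saline, and its log2 difference was 0.05 (standard error 0.13). Etnk2 (chr1:133363572-133380336), which encodes the other ethanolamine kinase, ranged from 199.8 to 272.2 CPM with FSH and from 152.4 to 333.3 CPM with saline, with a log2 difference of 0.05 (standard error 0.16). The 95% intervals of these differences were -0.37 to 0.30 for Chkb, -0.24 to 0.33 for Etnk1 and -0.29 to 0.39 for Etnk2, so smaller differences were not detectable here. The sign of each was not stable: it changed in 6 of 21 alternative fits for Chkb, in 5 for Etnk1 and in 3 for Etnk2.

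The makeup of the choline kinase transcripts differed accordingly. Per kb of all annotated exons, Chka made up 31.9% ± 3.29 (SD, n = 6) of the summed Chka and Chkb level in saline livers and 9.43% ± 1.91 (SD, n = 5) in FSH livers. Its share ran from 29.3% to 38.2% with saline and from 7.20% to 12.1% with FSH. Per kb of the longest annotated transcript, the shares were 49.1% ± 3.67 (SD, n = 6) and 17.7% ± 3.24 (SD, n = 5). By this length the share ran from 46.3% to 56.1% with saline and from 13.9% to 22.3% with FSH, so the shares in both groups depended on the length used, and the groups did not overlap with either. Etnk2 made up 93.8% ± 1.37 (SD, n = 6) of the summed ethanolamine kinase level per kb of exons with saline and 93.9% ± 0.88 (SD, n = 5) with FSH.

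**Figure D1:**
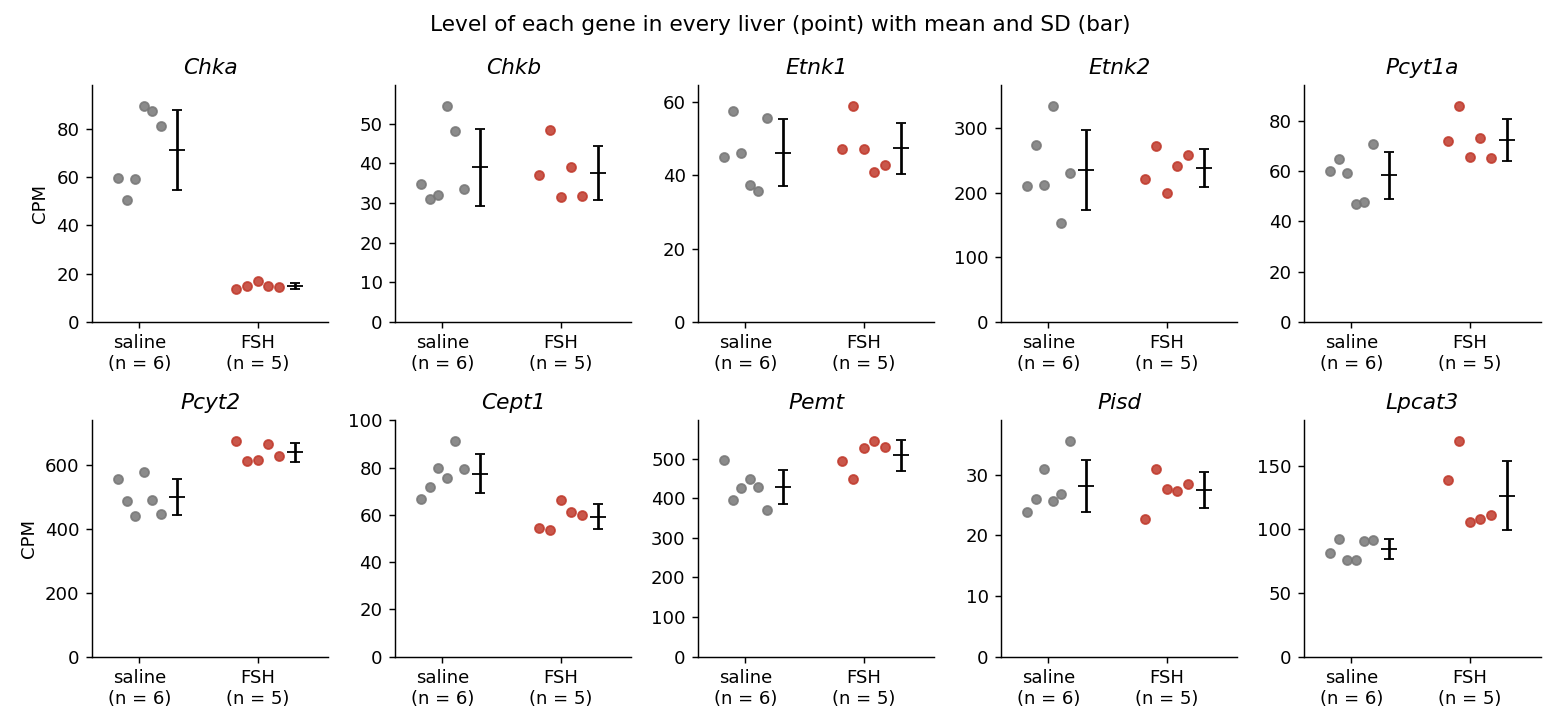
Level of each of the 10 genes in CPM (vertical axes from 0), with 1 point per liver in the order of the mouse numbers (6 saline in gray, 5 FSH in red) and the mean and SD beside the points. Chka lies at 13.5 to 17.1 CPM in FSH livers and 50.4 to 89.3 CPM in saline livers, and the groups are also apart for Pcyt2, Cept1 and Lpcat3.

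The genes Pcyt1a and Pcyt2, whose products make the CDP-activated bases and include the rate-limiting step of PC synthesis, had higher means with FSH. Pcyt2, for the enzyme of the ethanolamine branch (chr11:120610087-120617936, minus strand), had 675.7, 613.6, 618.3, 668.0 and 629.2 CPM in FSH mice 1, 2, 3, 4 and 6. With saline, its level was 558.1, 488.5, 441.2, 580.3, 492.7 and 448.5 CPM in mice 1 to 6. All FSH livers were above all saline livers, with a gap between 580.3 and 613.6 CPM. The log2 difference of Pcyt2 was 0.36 (standard error 0.09), or 1.28-fold higher with FSH. Pcyt1a, for the enzyme of the choline branch (chr16:32430921-32475070), ranged from 65.3 to 85.8 CPM with FSH and from 47.0 to 70.7 CPM with saline. The ranges of Pcyt1a overlapped through saline mouse 6, and its log2 difference was 0.32 (standard error 0.12). Slc51a, which overlaps Pcyt1a on the other strand, was listed at 0 in every library.

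Cept1, for choline/ethanolamine phosphotransferase, acts in the final step of both branches (chr3:106502260-106547802, minus strand). It had 54.5, 53.7, 66.3, 61.4 and 60.1 CPM in FSH mice 1, 2, 3, 4 and 6. With saline it had 66.7, 71.8, 80.0, 75.8, 91.2 and 79.6 CPM in mice 1 to 6. The groups were only just apart, since the highest FSH liver (mouse 3) and the lowest saline liver (mouse 1) were at 66.3 and 66.7 CPM. The log2 difference of Cept1 was -0.38 (standard error 0.09), or 1.30-fold lower with FSH. Dram2 and Dennd2d overlap Cept1 on the other strand, and because the handling of strand is not given in the sources used here, shared reads cannot be told apart. Dram2 had a log2 difference of -0.13 (limma adjusted p = 0.468) and Dennd2d of 0.21 (limma adjusted p = 0.321).

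Pemt, for the enzyme that methylates PE to PC (chr11:59970614-60046489, minus strand), ranged from 448.0 to 543.7 CPM with FSH and from 371.1 to 495.5 CPM with saline. Its mean was 507.9 ± 38.3 CPM (SD, n = 5) against 427.5 ± 43.4 CPM (SD, n = 6), a log2 difference of 0.25 (standard error 0.09), and the ranges overlapped through saline mice 1 and 4 and FSH mice 1 and 2. Pisd, for the mitochondrial decarboxylase that makes PE from phosphatidylserine (chr5:32736301-32785646), had 27.4 ± 2.98 CPM (SD, n = 5) in FSH livers and 28.2 ± 4.29 CPM (SD, n = 6) in saline livers. The log2 difference of Pisd was -0.03 (standard error 0.11, 95% interval -0.27 to 0.21), and its sign changed in 2 of the 21 alternative fits. Pisd reads could be shared with the copies Pisd-ps1 and Pisd-ps2, which had log2 differences of -0.04 (limma adjusted p = 0.915) and -0.15 (limma adjusted p = 0.748).

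Lpcat3, whose product inserts polyunsaturated acyl chains into lysophosphatidylcholine, remodels PC after its synthesis (chr6:124663027-124704418, plus strand). Its level was 138.7, 169.3, 105.5, 108.4 and 111.0 CPM in FSH mice 1, 2, 3, 4 and 6. With saline, it was 81.1, 92.7, 75.9, 76.2, 90.6 and 91.6 CPM in mice 1 to 6. The groups did not overlap, and FSH mice 1 and 2 stood above the other FSH livers. The log2 difference of Lpcat3 was 0.56 (standard error 0.12), or 1.47-fold higher with FSH, and it lay between 0.45 and 0.62 over the alternative fits. Emg1, which overlaps Lpcat3 on the other strand, had a log2 difference of -0.13 (limma adjusted p = 0.474).

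**Figure D2:**
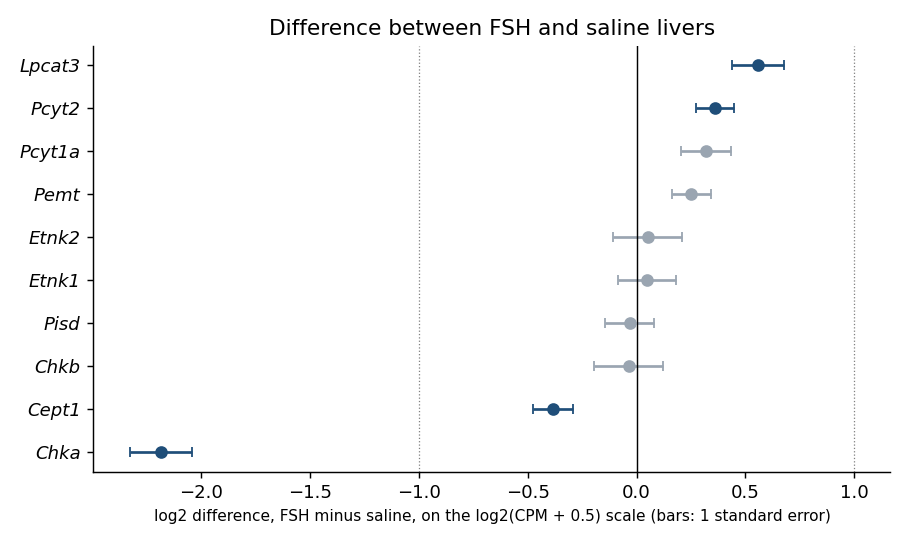
Log2 difference, FSH minus saline, of the 10 genes on the log2(CPM + 0.5) scale (horizontal axis; bars are 1 standard error from limma, n = 5 and n = 6; dotted lines at -1 and 1). Dark points are genes with an adjusted p under 0.05, namely Chka (-2.18), Cept1 (-0.38), Pcyt2 (0.36) and Lpcat3 (0.56).

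With limma's adjusted p under 0.05 over all genes, 4 of the 10 genes were past the threshold, beside 10.6% of all 12733 genes. Higher with FSH were Pcyt2 and Lpcat3 (2 genes, beside 6.19% of all genes), and lower were Chka and Cept1 (2 genes, beside 4.41%). With the study's second threshold, an absolute log2 difference over 1, only Chka remained, beside 1.83% of all genes. The groups did not overlap for the same 4 genes, beside 6.67% of all genes. Since the genes were picked with this contrast known, nothing is read from these counts. The median log2 difference was 0.05 over the 10 genes and 0.02 over all genes tested. Without FSH mouse 1, the deepest library, Pcyt2 (log2 difference 0.34) and Cept1 (log2 difference -0.355) were no longer past the threshold. This left 2 of the 10 genes, beside 803 of the 12717 genes tested in that fit.

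The order of the transcript levels among the 10 genes within the saline livers is another quantity than the difference between treatments, and it was examined per length. Per kb of all annotated exons, Pemt was highest with 203.2 ± 20.6 CPM per kb (SD, n = 6), followed by Pcyt2 with 115.4 ± 13.1 and Etnk2 with 51.5 ± 13.6 CPM per kb. Lpcat3 and Cept1 followed with 25.9 ± 2.40 and 24.9 ± 2.68 CPM per kb, then Chkb (12.7 ± 3.20), Pcyt1a (7.87 ± 1.26), Chka (5.93 ± 1.39), Pisd (4.90 ± 0.75) and Etnk1 (3.27 ± 0.64 CPM per kb). For 6 of the 9 pairs of neighbors in this order, the higher gene was higher in 6 of 6 saline livers (exact sign-flip permutation test, two-sided, p = 0.0312, the smallest that 6 livers allow; adjusted p = 0.0469 over the 9 pairs). The neighbors and the higher gene of each pair were set by the means of these same livers, so the direction was fixed by the ordering. The p-value is at its smallest whenever all 6 livers share a direction, so it does not measure the spread. It was the same for Pemt over Pcyt2 (mean log2 difference 0.82, SD 0.11) and Chkb over Pcyt1a (0.67, SD 0.56). Nothing is concluded from these p-values. The neighbors without 1 direction in all 6 livers were Lpcat3 and Cept1 (exact permutation p = 0.469), Pcyt1a and Chka (exact permutation p = 0.125) and Chka and Pisd (exact permutation p = 0.156).

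Per kb of the longest annotated transcript the order was kept except that Chka moved above Pcyt1a. Its level was then 15.3 ± 3.60 CPM per kb (SD, n = 6), next to Chkb with 15.9 ± 3.996. With that length, 6 of the 9 neighboring pairs again had 1 direction in all 6 livers, but they were not the same pairs. Lpcat3 was then above Cept1 in 6 of 6 livers (exact permutation p = 0.0312), whereas Pisd was above Etnk1 in only 5 of 6 (exact permutation p = 0.0625, adjusted p = 0.0804). In the FSH livers, Chka was the lowest of the 10 genes by either length, with 1.24 ± 0.11 CPM per kb of exons (SD, n = 5), below Etnk1 with 3.35 ± 0.49, and this order held in 5 of 5 livers. The smallest p that 5 livers allow is 0.0625, so no order could pass the threshold there. The lengths differ strongly for some genes (12024 bases of exons and 4652 bases of the longest transcript for Chka), and levels compared between genes depend on them.

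**Figure D3:**
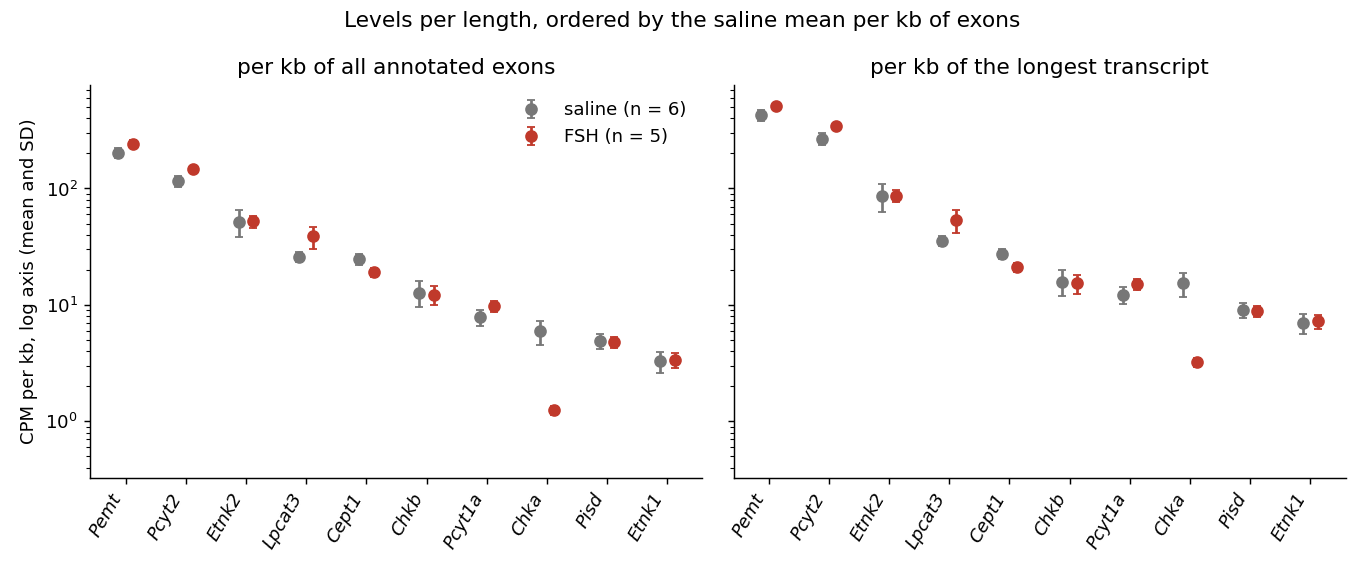
Mean and SD of the level per length (CPM per kb, log axis) of the 10 genes in saline (gray, n = 6) and FSH livers (red, n = 5), per kb of all annotated exons on the left and per kb of the longest transcript on the right. Pemt and Pcyt2 are highest in both groups, and Chka in FSH livers is lowest, at 1.24 and 3.22 CPM per kb.

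Other genes of PC and PE metabolism were followed as 6 lists with 62 genes, of which 53 could be tested in the same fit. At limma's adjusted p under 0.05, 7 were higher and 7 were lower with FSH, that is 26.4% of those tested beside 10.6% of all genes, and the median log2 difference of the 53 genes was 0.00. In the fit without FSH mouse 1, the calls fell to 1 higher and 4 lower, beside 803 of the 12717 genes tested in that fit. The lists were not tested as sets. Of the 14 genes, 5 (Bhmt, Cds2, Pnpla6, Flvcr2 and Pla2g12b) stayed past the threshold in all 21 alternative fits. For the other 9, the losses given with each gene are those in fits without 1 mouse, and some calls were also lost under other settings.

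Of the 8 tested genes of other synthesis steps and base supply, 2 fell and 0 rose with FSH. Selenoi, for an ethanolamine phosphotransferase that shares the final step of PE synthesis with Cept1, had 28.8 ± 5.05 CPM (SD, n = 5) in FSH livers and 38.2 ± 5.13 CPM (SD, n = 6) in saline livers, and its log2 difference was -0.41 (standard error 0.12, limma adjusted p = 0.0398). Selenoi lost the call without FSH mouse 1, 3, 4 or 6 or saline mouse 1, 3, 5 or 6 (adjusted p up to 0.12). Phospho1, for a phosphatase of phosphocholine and phosphoethanolamine, had a log2 difference of -1.10 (standard error 0.33, limma adjusted p = 0.0462), which was lost in 9 of the 11 fits that left out 1 mouse (all but those without FSH mouse 2 or saline mouse 2; adjusted p up to 0.107) and in edgeR (adjusted p = 0.0529). Chpt1, which encodes the cholinephosphotransferase of the final PC step, had a log2 difference of -0.12 (limma adjusted p = 0.543). Its 95% interval ran from -0.34 to 0.11.

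Among 6 tested choline transport genes, 1 rose and 1 fell. Flvcr2, which encodes a choline importer, went from 5.34 CPM with saline to 2.95 CPM with FSH, a log2 difference of -0.73 (standard error 0.17, limma adjusted p = 0.0123). Slc44a3, of the choline transporter-like family, had a log2 difference of 0.53 (standard error 0.13, limma adjusted p = 0.0186), lost without FSH mouse 1 or 2 (adjusted p up to 0.0636). Slc44a1, for a choline transporter-like protein, had a log2 difference of -0.04 (limma adjusted p = 0.828). Slc44a5 and Slc5a7 were listed at 0 in all 11 libraries.

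Of the 11 tested genes for choline oxidation and glycerophosphocholine turnover, 1 rose and 2 fell. Bhmt, for the enzyme that uses betaine from choline to remethylate homocysteine, ranged from 1031 to 1782 CPM with FSH and from 2239 to 2657 CPM with saline. The groups did not overlap, and the log2 difference of Bhmt was -0.88 (standard error 0.13, limma adjusted p = 0.000492). Pnpla6, for a phospholipase that degrades PC to glycerophosphocholine, had a log2 difference of -0.56 (standard error 0.12, limma adjusted p = 0.00785). Gpcpd1, which hydrolyzes glycerophosphocholine, had 43.1 ± 19.7 CPM (SD, n = 5) in FSH livers and 21.1 ± 8.40 CPM (SD, n = 6) in saline livers, a log2 difference of 0.96 (standard error 0.29, limma adjusted p = 0.0489). Gpcpd1 lost the call without FSH mouse 1, 2 or 4 or saline mouse 1, 2, 3, 5 or 6 (adjusted p up to 0.133). Chdh, for choline dehydrogenase, had a log2 difference of -0.15 (limma adjusted p = 0.544).

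Of the 14 tested genes for acyl remodeling and phospholipases, 2 rose and 2 fell. Pla2g12b, for a secreted phospholipase A2 family member, fell by 0.36 on the log2 scale (standard error 0.08, limma adjusted p = 0.0102). Lpcat2, for a lysophosphatidylcholine acyltransferase, went from 2.16 CPM with saline to 1.26 CPM with FSH, on as few as 14 reads in a liver. Its log2 difference was -0.60 (standard error 0.18, limma adjusted p = 0.0419), lost without FSH mouse 1, 2, 3 or 6 or saline mouse 1, 3, 5 or 6 (adjusted p up to 0.113). Pla2g15, for a lysosomal phospholipase A2, had a log2 difference of 0.38 (standard error 0.10, limma adjusted p = 0.0288), lost without FSH mouse 1, 3 or 4 or saline mouse 3 (adjusted p up to 0.0797). Lpgat1, for a lysophospholipid acyltransferase, had a log2 difference of 0.45 (standard error 0.13, limma adjusted p = 0.0358), lost without FSH mouse 1, 2, 3 or 4 or saline mouse 1, 3, 4 or 5 (adjusted p up to 0.0898).

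Of 7 tested genes for phospholipid transfer and biliary export, 2 rose and 0 fell. Stard7, for a protein that carries PC to mitochondria, had a log2 difference of 0.38 (standard error 0.09, limma adjusted p = 0.0179), lost without FSH mouse 1 (adjusted p = 0.0577). Pctp, for the PC transfer protein, had a log2 difference of 0.41 (standard error 0.12, limma adjusted p = 0.0413), lost without FSH mouse 1, 2, 3 or 4 or saline mouse 2, 3, 4 or 5 (adjusted p up to 0.125). Abcb4, for the exporter of PC into bile, had a log2 difference of -0.10 (limma adjusted p = 0.736). In the CDP-diacylglycerol branch, which leads to phosphatidylinositol and cardiolipin, 1 of 7 tested genes rose and 0 fell. This was Cds2, for a CDP-diacylglycerol synthase, with 94.4 to 110.5 CPM in FSH livers and 58.3 to 76.8 CPM in saline livers, a log2 difference of 0.59 (standard error 0.09, limma adjusted p = 0.0012).

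**Figure D4:**
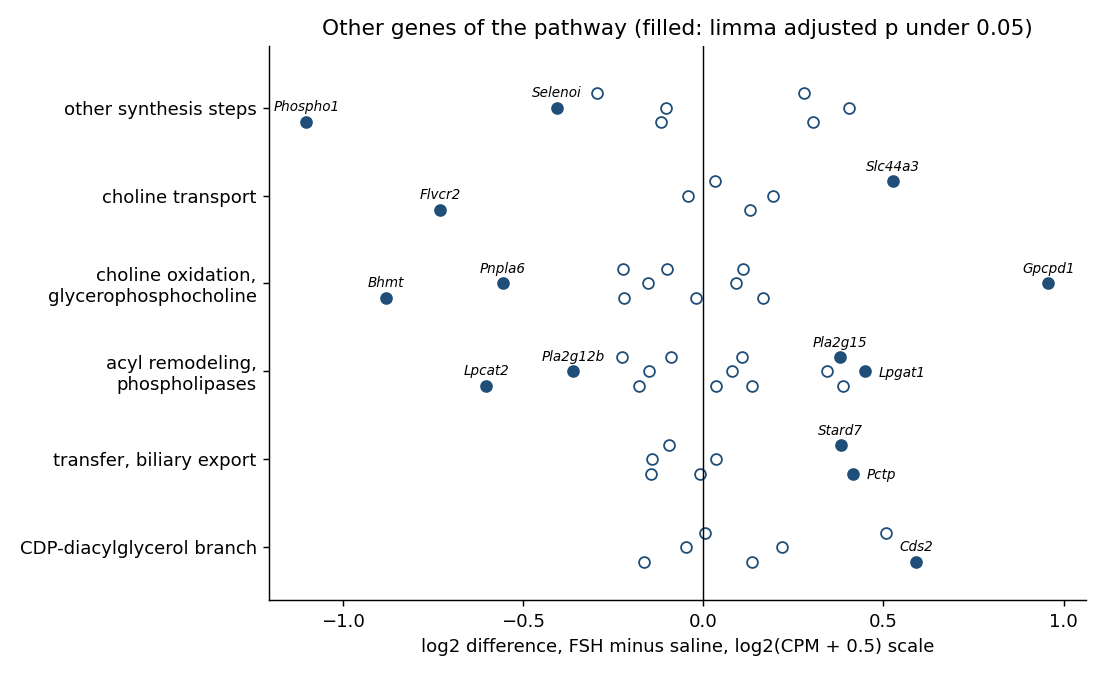
Log2 difference, FSH minus saline (horizontal axis), of the 53 tested genes of the 6 lists (rows), 1 point per gene. Filled and named points are the 14 genes with a limma adjusted p under 0.05, 7 on each side of 0, between -1.10 (Phospho1) and 0.96 (Gpcpd1).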

How the data were processed

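Total RNA of whole liver was sequenced as NEBNext Ultra libraries in 11 mice (5 FSH, 6 saline). The authors deposited 1 table in CPM, in which each library sums to 1000000 and no further scaling was applied. The submitters' processing notes name FastQC, cutadapt, Trim Galore, STAR, RSEM and the build mm10; the annotation and strand setting are not given in the sources used here. Values were whole multiples of each library's smallest step (100% within 0.01 reads), which gave back the reads. Symbols and positions came from GENCODE M21 (GRCm38), which named 35555 of 36788 identifiers.

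Genes whose mean reached 0.5 CPM were fitted on log2(CPM + 0.5) with limma 3.58.1 (R 4.3.3; eBayes with an intensity trend, Benjamini-Hochberg adjustment). This scale understates changes of low genes. Neighboring levels were compared with an exact sign-flip permutation test. Scripts were tested on simulated data. Alternatives were a replicate block, each mouse left out in turn, other scalings, pseudocounts and filters, weighted arrays, a fit without the trend and, chosen after seeing the data, edgeR 4.0.16 on the recovered reads. The genes and lists were chosen with earlier results of these data known. Named were the 10 genes, from each list up to 4 genes past the threshold, and Dbp and Arntl. Chpt1, Slc44a1, Slc44a5, Slc5a7, Chdh, Abcb4, the cell type markers and the genes that overlap or copy a followed gene were named after their values were seen. No library pair within a group differed as little as sampling noise (lowest mean chi-square per gene 11.2). The labels do not say that mice were separate litters or cages, so p-values measure the spread between these mice.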

Additional observations from a re-analysis of the deposited data

Results flagged for a closer look

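Single livers stood apart from their group in 3 of 52 groups of values checked by Dixon's criterion, where chance gives about 1 in 20. Saline-treated mouse 6 had 48.1 CPM of Selenoi, while the other saline livers had between 34.2 and 39.0 CPM. The same mouse had 9.77 CPM of Phospho1, against 3.49 to 5.71 CPM in the other saline livers. FSH-treated mouse 6 had 46.1 CPM of Pla2g12b, against 39.7 to 41.5 CPM in the other FSH livers. None of the 10 PC and PE synthesis genes had such a liver in either group.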

How the results depend on the processing

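Over the 21 alternative fits, Chka, Pcyt1a, Pcyt2, Cept1, Pemt and Lpcat3 kept their direction, while the sign of Chkb, Etnk1, Etnk2 and Pisd changed in 6, 5, 3 and 2 of them. The number of the 10 genes past the adjusted p threshold (4) ran from 2 to 5 in the fits that each left out 1 mouse, and edgeR left 3, without Pcyt2. Of all genes, 1350 were called, 803 to 1659 when 1 mouse was left out, 1892 with array weights and 1435 by edgeR. The 14 calls among the other pathway genes became 16 with array weights, 15 with upper-quartile scaling, 9 without the intensity trend, 8 without a filter on low values, and 5 to 13 when 1 mouse was left out. Selenoi, Phospho1, Gpcpd1, Lpgat1 and Pctp lost the call both without the trend and without the filter, Lpcat2 without the filter, and Gpcpd1 also with median-of-ratios scaling. Fitting the replicate number as a block gave 9 of these calls, 4 of the 10 genes and 1210 genes in all. Lost under the block were Selenoi (limma adjusted p = 0.0607), Phospho1 (0.0508), Pla2g15 (0.0946), Lpcat2 (0.141) and Pctp (0.0653). The numbers do not pair the mice by any label, the correlation of same-numbered deviations ran from -0.066 to 0.356, and 1 of 5 FSH livers correlated best with its own number. The causes were not tested. Phospho1 rested on as few as 11 reads in a liver, Lpcat2 on as few as 14, and Chka on at least 165.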

Other observations

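Within the 6 saline livers, which also entered the contrast behind the choice of genes, the 45 pairs among the 10 genes were compared on the log2(CPM + 0.5) scale, after the data had been seen. No pair passed an adjusted p under 0.05 in the exact permutation test over livers (two-sided), and 4 pairs had an unadjusted p under 0.05. The pair with the largest Pearson's r was Etnk1 and Pcyt1a (Pearson's r = 0.95, exact permutation p = 0.0194, adjusted p = 0.406; Spearman's rho = 0.83, exact permutation p = 0.0583, adjusted p = 0.525). Without the 2 livers farthest from the median of Etnk1, r was 0.99 over only the 4 remaining livers. The other pairs with an unadjusted p under 0.05 weakened when 2 livers were left out in the same way. For Chkb and Pcyt1a, r went from -0.91 to -0.02, for Chkb and Etnk1 from -0.87 to -0.50, and for Chka and Chkb from 0.81 to 0.69. The points share libraries. The saline livers of Chka lay in 2 ranges, 50.4 to 59.8 CPM in mice 1, 2 and 3 and 81.3 to 89.3 CPM in mice 4, 5 and 6. The largest Spearman's rho was that of Chka and Chkb (rho = 0.94, exact permutation p = 0.0167, adjusted p = 0.525), which is also among the 4 pairs, but it pools these ranges, and each holds too few livers for a relation within it.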
